A study of Caenorhabditis elegans with 2 samples.

Results

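Regions of the genome at long intergenic noncoding RNA (lincRNA) genes of the nematode Caenorhabditis elegans were followed in a ChIP-seq study of the transcription factor ETS-5. A region was taken when its summit, the position of its highest signal, lay within 1000 bp of the body of a gene that the WBcel235 annotation types as lincRNA or whose name starts with linc-. Of the 126002 regions in the ranked list made from both replicates, 766 met this rule. They belong to 184 of the 195 lincRNA genes so defined, of which 170 are named linc- and 25 carry other names. Only the position of the summit chose the regions, so their signal, rank, replication and sequence were not used in choosing them.

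The study has 1 group with 2 biological replicates, and no condition was compared with another. The worms were of strain OP809, in which a fosmid transgene, wgIs809, carries ets-5 fused to TY1, EGFP and 3xFLAG tags together with a working copy of unc-119, in an unc-119(tm4063) background. They were whole L1 larvae, synchronized by bleaching, starved and labelled 6 hours old. Both replicates are of this single strain, whose fusion is an added copy of the gene, and an antibody to GFP pulled down the fusion. The antibody field of the labels names ets-5 instead. Chromatin was sheared by sonication. An input or untagged sample was not analysed here, and the files used here do not give read depth, so a region's signal cannot be set against the level without the fusion. The signal of a region is a value from the authors' caller, in units that no label gives, and it serves here only to rank regions inside 1 list. Since whole larvae were used, a strong signal in few cells and a weak one in many cannot be told apart.

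LincRNA genes are transcribed by RNA polymerase II into spliced or unspliced transcripts that encode no known protein and, by the usual definition, lie between protein-coding genes. Their promoters are bound by transcription factors in the same way as those of coding genes, and most worm lincRNAs have no assigned function. ETS-5 has the ETS domain, a DNA-binding fold that reads a GGAA core, most often as CCGGAA, and in the worm it is best known from the BAG neurons, sensory cells for respiratory gases whose identity it helps to specify.

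The 4 windows shown here, from regions that stood high at lincRNA genes, did not share 1 sequence type. They are those of the strongest region and of 3 others among the 8 of highest signal. They carry the contrast described for ETS core words and base composition, and do not stand for all of the highest regions. Each runs 5′ to 3′ on the plus strand of WBcel235 (ce11), with 100 bases on each side of the summit, from the RefSeq copy of that assembly. The windows are V:1151380-1151580 at linc-128, II:7446932-7447132 at Y9D1A.1, II:1071803-1072003 at linc-13 and X:14506404-14506604 at linc-54. Capitals mark GGAA or, where it stands on the other strand, TTCC.
linc-128: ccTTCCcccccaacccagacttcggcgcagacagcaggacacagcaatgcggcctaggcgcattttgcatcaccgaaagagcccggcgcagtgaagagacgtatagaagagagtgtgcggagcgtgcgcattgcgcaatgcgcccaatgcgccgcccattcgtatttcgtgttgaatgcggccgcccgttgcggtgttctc
Y9D1A.1: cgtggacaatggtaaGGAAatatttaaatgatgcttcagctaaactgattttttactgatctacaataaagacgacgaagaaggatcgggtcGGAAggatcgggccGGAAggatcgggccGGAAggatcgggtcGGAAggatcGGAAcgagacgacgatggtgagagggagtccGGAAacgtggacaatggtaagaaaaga
linc-13: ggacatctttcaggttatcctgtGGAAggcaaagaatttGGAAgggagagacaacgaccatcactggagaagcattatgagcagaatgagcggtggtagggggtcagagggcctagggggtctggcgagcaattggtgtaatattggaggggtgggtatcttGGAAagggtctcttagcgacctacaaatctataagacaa
linc-54: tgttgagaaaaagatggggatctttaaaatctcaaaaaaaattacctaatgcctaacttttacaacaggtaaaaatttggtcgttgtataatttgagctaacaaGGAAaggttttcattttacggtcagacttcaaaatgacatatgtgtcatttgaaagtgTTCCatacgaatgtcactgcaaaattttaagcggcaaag
The linc-128 window is 60.7% G and C, holds the ETS core once, at its edge, and holds ATGCGC 4 times when both strands are read, counting overlaps. The Y9D1A.1 window holds GGAA 7 times, 3 of them within CCGGAA. Most of these words stand in or next to a stretch where the unit GGATCGGG recurs 4 times. A GGAA lies well before that stretch and a CCGGAA after it. The linc-13 window holds GGAA 3 times and CCGGAA not at all. The linc-54 window is only 32.3% G and C and holds GGAA once on each strand. Presence of a word is a description of the letters in these windows and not evidence of binding.

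The strongest region at a lincRNA gene lay in an exon of linc-128 (V:1151325-1151634), 574 bp downstream of the annotated start of this single-exon gene of 2302 bp. Its signal was 146 in the series list, 75.2 in replicate 1 and 67.9 in replicate 2. It ranked 31 among the 126002 regions, 43 in the list of replicate 1 and 33 in that of replicate 2, so it stood near the top in both. The nearest start site of a protein-coding gene, that of cmd-1 for calmodulin, was 4791 bp away. The gene had 9 regions in all. The others reached 41.6, and the weakest, at the 5′ end of the body, had 2.90.

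M04F3.7, a gene of 733 bp on the minus strand, had the next region 588 bp upstream of its start (I:4769496-4769805). The region lay between genes, 641 bp from the start of rpa-2, which encodes a subunit of the single-stranded DNA binding protein RPA, and so about as far from rpa-2 as from M04F3.7. Its signal was 107 in the series list, 56.5 in replicate 1 and 54.6 in replicate 2, and its rank was 69 in the series list. It stood in the top 0.0873% of the list of replicate 1 and the top 0.0730% of that of replicate 2. The remaining 3 regions of the gene had 33.9 in the body and 35.6 and 20.6 downstream.

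These 2 regions were the members that passed the authors' threshold in the main list. The threshold was set on the irreproducible discovery rate (IDR), a measure that is low where a region ranks both high and alike in compared lists. The 2 members are 0.261% of the 766 (exact 95% binomial interval 0.0316% to 0.940%), where 0.198% of all ranked regions passed and 248 of the 125236 regions elsewhere did. The share at lincRNA genes is thus near the background. Both had the highest score the list gives, 1000, against a lowest score of 830 in the main list. That score was reached by 0.0990% of the rest, a share that the members' interval also takes in. Such intervals reflect counting error alone, and regions side by side on the genome are not independent.

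The conservative list, drawn from a second ranked list that compares the replicates, held 4 regions at lincRNA genes among the 744 that list places there. That is 0.538% (exact 95% binomial interval 0.147% to 1.37%), where 0.143% of that whole list passed. Beside linc-128 and M04F3.7 they were regions of linc-171 and linc-35. The linc-171 region lay in an exon of that gene (I:10175166-10175475) and had a signal of 80.8 in the series list, 36.9 in replicate 1 and 45.3 in replicate 2. The linc-35 region lay 255 bp downstream of that gene (II:6927227-6927536), in an untranslated exon of F22D3.4 and 221 bp from its start. Its signal was 79.1 in the series list, 48.2 in replicate 1 and 32.8 in replicate 2. In the series list the linc-171 region scored 526 and the linc-35 region 776, both below the lowest score of the main list. The count of 4 is small, and no test of the difference from the background was made.

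In the replicates' own lists that pass the threshold, the linc-128 region was the single member in replicate 1, 1 of 628 regions at lincRNA genes (0.159%, where 0.0194% of all regions passed). Replicate 2 had 0 of 560, where 0.0281% passed. For this count of 0 the exact 95% binomial interval reaches 0.657%, and 3 counts would be 0.536%. At these counts neither list can show a difference.

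Below the passing regions, the region of Y9D1A.1 came closest to the threshold, with a score of 827 and a global IDR of 0.0101. It lay in an exon of this gene (II:7446877-7447186), 9252 bp from the nearest protein-coding start. Its signal was 84.3 in the series list, 31.0 in replicate 1 and 51.8 in replicate 2. The replicates placed it differently, in the top 5.05% of the list of replicate 1 and the top 0.0892% of that of replicate 2. This is the window with 3 CCGGAA words.

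The remaining regions among the 12 in the top 1% of the series list belonged to 7 further lincRNA genes, 1 region each. The linc-13 region (II:1071748-1072057) lay 64 bp upstream of that gene and had 72.4 in the series list, 44.9 in replicate 1 and 25.5 in replicate 2. The linc-95 region lay 390 bp upstream and only 29 bp from the start of the coding gene rilp-1, with 69.5 in the series list, 59.5 in replicate 1 and 21.7 in replicate 2. Its rank differed widely between the replicates, top 0.0716% in replicate 1 and top 18.5% in replicate 2. The linc-54 region had 65.5, and linc-131 had 65.4 with its summit in an intron of ubc-3, a gene for a ubiquitin-conjugating enzyme. A coding exon of sue-1 held the linc-141 region (65.1), while linc-161 (64.8) and linc-150 (64.6) had theirs between genes. So several of the highest regions counted at lincRNA genes lie equally at, or within, a protein-coding gene.

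Places 13 to 25 ran down to a signal of 53.1 and were held by linc-25 (63.7), a second region of linc-35 (63.5), linc-90 (62.8 and 55.3), linc-34 (61.6), linc-27 (61.0), linc-143 (60.9), linc-37 (57.8), linc-8 (56.2), linc-140 (54.5), linc-108 (54.1), linc-43 (54.1) and linc-129 (53.1). The linc-143 gene lies wholly inside daf-2, which encodes the insulin/IGF receptor, on the same strand. The linc-37 region fell in an intron of zip-2, a bZIP transcription factor gene of the pathogen response, and the linc-129 region in a coding exon of sca-1, which encodes the calcium pump of the endoplasmic reticulum. Signal and score did not always go together. The linc-27 region had a score of only 175 (global IDR 0.378), with 31.8 in replicate 1 and 32.0 in replicate 2. The lists compared for that score could not be tied to the replicates.

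The 25 highest regions came from 23 genes. Their summits fell in the gene body in 8 cases, upstream in 8 and downstream in 9, and 8 lay within 500 bp of a protein-coding start. All 25 overlapped a region in each replicate's list. Their signal ran from 11.7 through a median of 32.0 to 75.2 in replicate 1, and from 18.6 through 31.7 to 67.9 in replicate 2. Of the 25, 14 were in the top 10% of both lists. Beside linc-95, the ranks lay far apart at linc-108, at 64.2% of the list in replicate 1 and 0.592% in replicate 2. The same held for linc-43, at 36.5% in replicate 1 and 0.960% in replicate 2, and linc-25, at 0.330% in replicate 1 and 29.95% in replicate 2. Wide gaps were also found at linc-37, linc-140 and linc-143, among others.

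**Figure D1:**
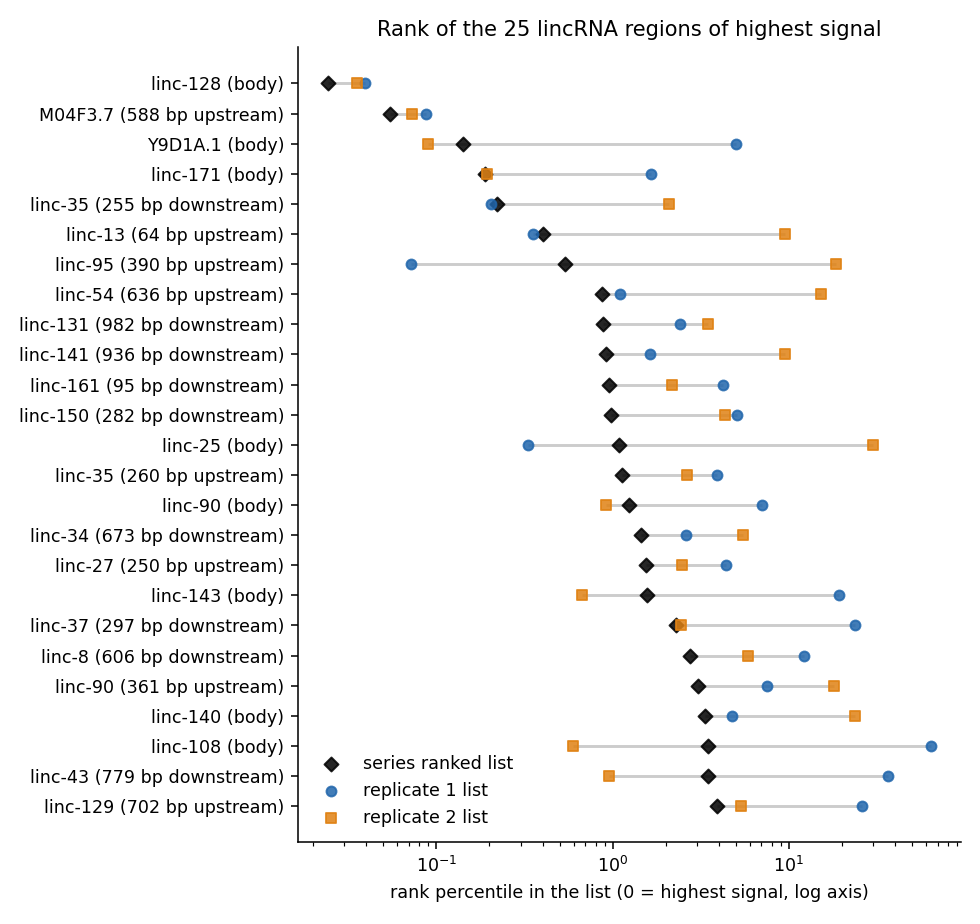
Rank percentile (log axis, 0 at the highest signal) of the 25 lincRNA regions of highest signal in the series list (diamonds), the replicate 1 list (circles) and the replicate 2 list (squares), with the place of each summit against its gene. The linc-128 and M04F3.7 regions stand under 0.1% in all 3 lists, while linc-95, linc-25, linc-43 and linc-108, among others, stand far apart between the replicates.

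The replicates' own lists named few other regions. In replicate 1 the 5 highest at lincRNA genes were linc-128 (75.2), linc-95 (59.5), M04F3.7 (56.5), linc-105 (54.6) and linc-35 (48.2). In replicate 2 they were linc-128 (67.9), M04F3.7 (54.6), Y9D1A.1 (51.8), linc-171 (45.3) and linc-108 (38.7). Only linc-128 and M04F3.7 are in both sets of 5. The linc-105 region of replicate 1 had 20.7 in replicate 2 and 45.2 in the series list.

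The 766 regions had about the same signal as the rest of the list. Their median was 23.5 (95% interval of the median 21.88 to 24.96; middle 50% from 14.6 to 33.9), against 23.6 (14.1 to 34.3) for the other 125236 regions. In replicate 1 the medians were 14.7 for 628 regions at lincRNA genes and 14.8 for the rest, and in replicate 2 they were 15.1 for 560 regions and 14.5 for the rest. The median place in the list was 50.1% in the series, 50.3% in replicate 1 and 46.5% in replicate 2, where 0% is the highest signal. The highest 10% of the series list held 79 of them, 10.3%, against 9.998% of the rest, and the highest 1% held 12, 1.57% against 0.997%. The strongest region elsewhere, on X, had a signal of 1728, and on the other chromosomes the highest of the rest ran from 252 to 397. The highest member, at 146 and rank 31, lay below each of these.

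**Figure D2:**
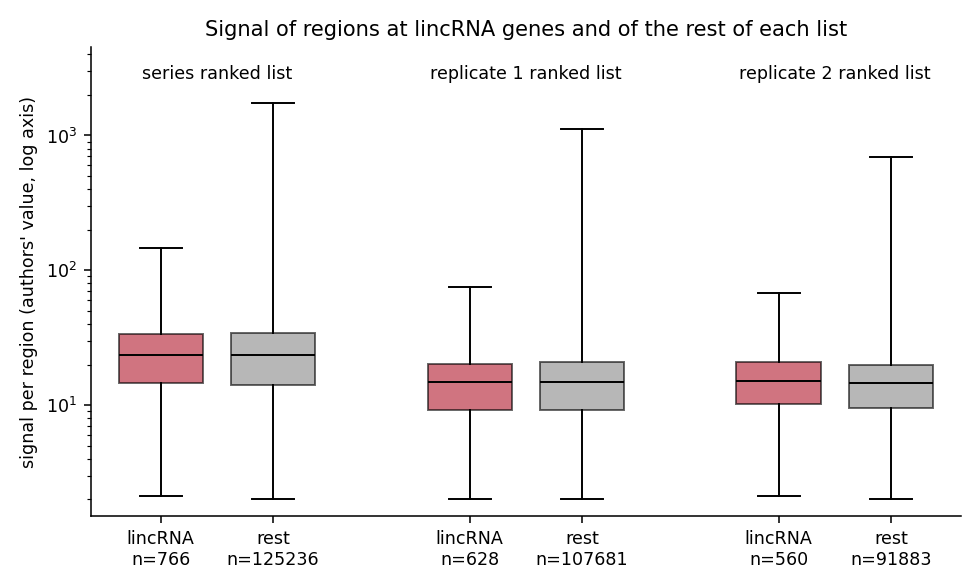
Signal per region (log axis) at lincRNA genes (red) and in the rest (grey) of the series list and of each replicate's list. Boxes span the middle 50% with the median, whiskers the whole range; the medians of the series list are 23.5 at lincRNA genes and 23.6 in the rest, and the upper whisker is longer for the rest in each list.

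The share of regions matched in both replicates was near that of the rest, while the shares matched in replicate 1 alone and in neither were not. Of the 766 regions, 423 overlapped a region in both replicates' lists, 55.2% (exact 95% binomial interval 51.6% to 58.8%), against 55.8% of the rest. A further 163, 21.3% (18.4% to 24.4%), overlapped one in replicate 1 alone, against 24.6% of the rest, and 113, 14.8% (12.3% to 17.5%), one in replicate 2 alone, against 13.2%. The other 67, 8.75% (6.84% to 11.0%), matched neither list, against 6.40% of the rest. The intervals for replicate 1 alone and for neither leave out the share of the rest, and the differences were not tested. Median signal was highest for regions matched in both lists and lowest for those matched in neither, at 29.0 in both, 18.8 in replicate 1 alone, 20.03 in replicate 2 alone and 10.7 in neither. Among the 423, the signals of the replicates were only weakly related (Spearman's rho 0.163 across regions, which share libraries and are not independent), against 0.204 among 69916 regions of the rest. Because neighbouring regions overlap, some members share a replicate region, and the 766 merge into 640 that do not overlap.

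**Figure D3:**
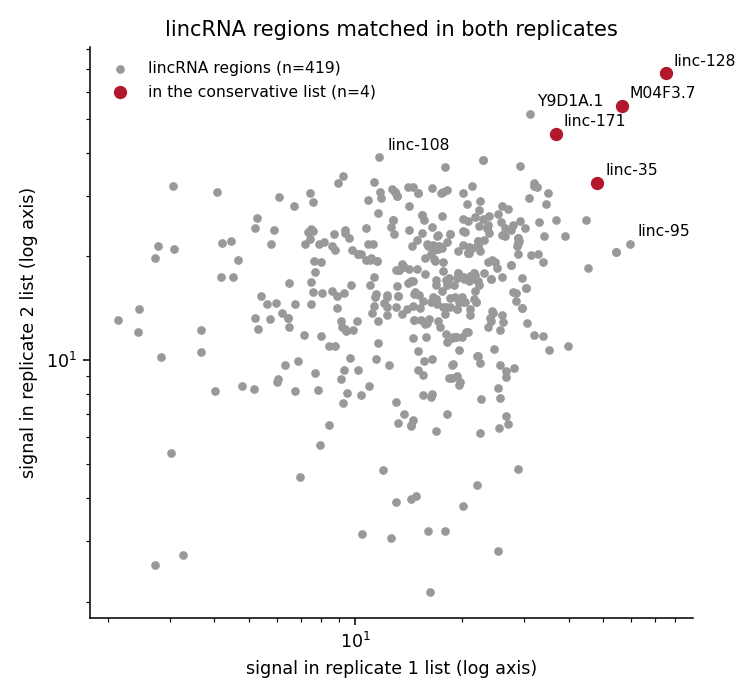
Signal in the replicate 1 list (x, log axis) and in the replicate 2 list (y, log axis) of the 423 lincRNA regions matched in both. The 4 regions of the conservative list (red) lie at the upper right of a broad cloud in which the ranks of the replicates are weakly related. Of these, only linc-128 and M04F3.7 stand clear of it, while linc-171 and linc-35 have other regions near them.

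Along the genes, the regions were spread about evenly. There were 295 with the summit in the gene body (median signal 23.9), 234 upstream (24.0) and 237 downstream (22.9). Per kb there were 1.25 regions in gene bodies, 1.24 in the flanks of 1000 bp and 1.26 in the rest of the genome. In bins of 200 bp around the annotated start, the number per gene and kb ran between 1.08 and 1.41, with 1.15 in the 200 bp before the start and 1.41 in the 200 bp after it. Around the annotated end it ran between 1.00 and 1.49. The bin just after the start was the highest of the 10 around the start, with 55 regions against 53 in the next highest, a gap that was not tested. Median signal was 23.3 just before the start and 23.8 just after it. The upstream regions matched both replicates in 60.7%, those in the body in 51.2% and those downstream in 54.9%.

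**Figure D4:**
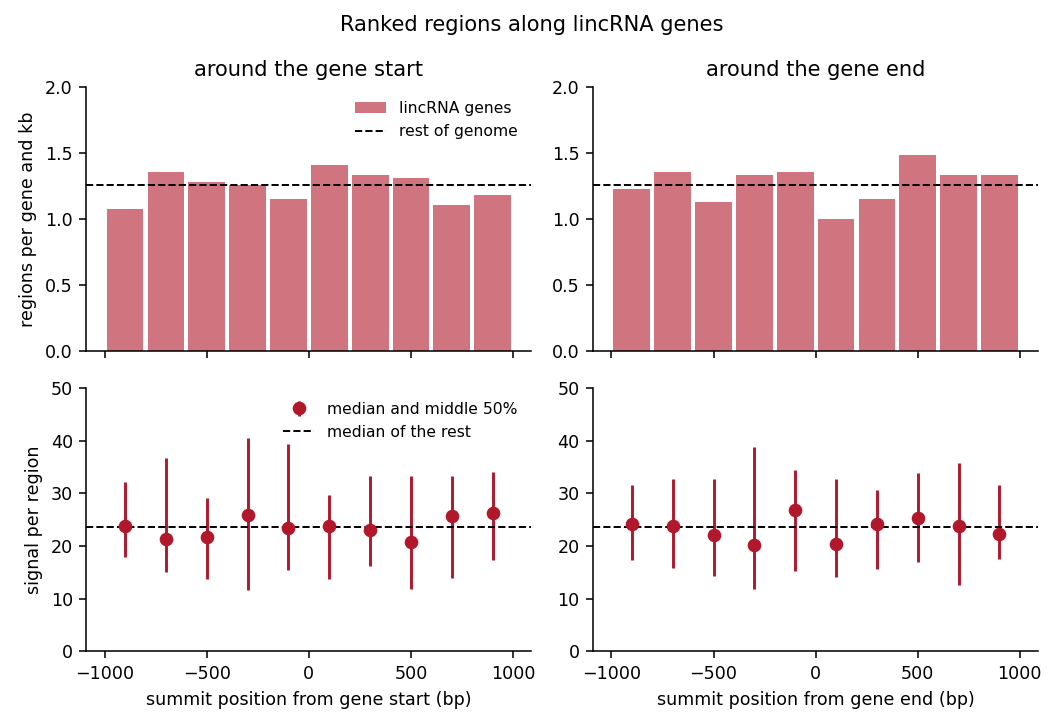
Regions per gene and kb (bars, top) and their median signal with the middle 50% (points and lines, bottom) in bins of 200 bp around the start and the end of the 195 lincRNA genes, with negative positions upstream. Dashed lines give the rest of the genome (1.26 per kb) and the median of the rest of the list (23.6); the bars vary from 1.00 to 1.49, and the highest around the start, 1.41, is the bin just after it. Bins on the gene side can lie beyond the other end of a short gene.

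Seen by gene, a ranked region within 1000 bp was common, in a list with more than 1 region per kb of the genome. It was found for 184 of 195 lincRNA genes, 94.4%, and 137 had a summit in the body itself. The genes without any were F31A9.2, linc-111, linc-148, linc-24, linc-44, linc-53, linc-55, linc-57, linc-69, linc-83 and linc-92. A gene had a median of 4 regions, and linc-90, linc-156 and linc-167 had the most, with 10 each. These are long genes, of 3181 bp, 5725 bp and 5651 bp, against a median of 767 bp over all. Gene length was related to the number of regions (Spearman's rho 0.490 across 195 genes, where a longer gene also has a longer window) and hardly to the best signal (rho 0.0530). The best region of a gene had a median signal of 39.0 over the genes that had one, with the lowest at 7.604.

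The 10 regions of linc-90 (III:352222-355402) varied over most of the list, from 2.75 to 62.8, and the highest lay 180 bp from a start of the coding gene gei-4. The linc-167 gene had its highest region in an exon, with 45.2 in the series list, 20.3 in replicate 1 and 23.6 in replicate 2. At linc-156 the highest had 37.1, with 26.9 in replicate 1 and only 6.55 in replicate 2, and 6 of its 10 regions matched replicate 1 alone. Some of these 6 overlap each other and share a replicate 1 region, so they are not separate matches. Neither linc-156 nor linc-167 had a region among the 25 highest, unlike linc-90.

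Among noncoding RNAs that have been studied singly, the best regions lay on both sides of the 39.0 that is the median of the best regions of all lincRNA genes. The lincRNA lep-5, which times the maturation of the male tail tip through the heterochronic pathway, had 3 regions, of which the highest had 26.1 in the series list, 18.7 in replicate 1 and 8.90 in replicate 2. It stood at 43.5% of the list. The best region of linc-7 had 50.2 (top 5.45%), that of linc-4 had 44.6 (top 9.89%), that of linc-22 had 40.8, that of linc-3 had 36.4 and that of linc-20 had 27.4. The linc-37 region, at 57.8, was in the top 2.29%. A pair of further noncoding genes, tts-1, whose RNA is abundant in long-lived daf-2 mutants, and rncs-1, a starvation-induced RNA known to inhibit Dicer, are typed as ncRNA and fall outside the rule. The best region of tts-1 had 42.8 and that of rncs-1 had 38.5. That rncs-1 region matched replicate 1 alone (12.5), and the best region of linc-20 matched replicate 2 alone (14.4).

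The regions differed from the rest of the list in where they lay against coding genes, as the definition of the genes implies. A protein-coding gene body held the summit of 190 of them, 24.8%, against 67.4% of the rest, and 123 (16.1%) lay within 500 bp of a protein-coding start, against 23.9%. Even so, 42 of the 195 lincRNA genes overlapped a protein-coding gene and 17 lay wholly inside one. By class, 299 summits were intergenic, 202 in lincRNA exons, 93 in lincRNA introns, 81 in coding exons, 60 in introns of coding genes, 18 in untranslated exons and 13 in other noncoding genes or pseudogenes. A summit in a lincRNA gene was classed there first. The coding classes thus leave out 31 summits that lay in both a lincRNA gene and a protein-coding gene. Median signal ran from 20.9 in untranslated exons to 25.98 in coding exons, where the rest of the list also had its highest class median (25.6). Members near a coding start had a median of 22.9, while members elsewhere had 23.8. The main list held 0 of the 123 members near a coding start and 88 of the 29876 such regions in the rest (0.295%), a share at which a count of 0 among 123 shows no difference. In the rest of the list the medians were 24.0 near a coding start and 23.4 elsewhere.

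The ETS core word CCGGAA lay within 100 bp of the summit, on either strand, in 78 of the 766 regions, 10.2% (exact 95% binomial interval 8.13% to 12.6%), against 9.18% of the rest. The interval takes in the share of the rest. Median signal was 27.1 among members with the word and 23.1 among members lacking it, while in the rest of the list it was 24.7 with the word and 23.4 in its absence. Among the 25 highest members 2 held it (8.0%), at Y9D1A.1 and linc-108. Of the 4898 regions of the rest with at least the signal of the last of the 25, 11.1% held it. The shorter core GGAA was in 87.9% of all members and of the rest. It was in 20 of the 25 (80.0%), against 87.5% of those 4898 regions, and neither gap was tested. So short a word is in most windows of this size, and every CCGGAA also counts as a GGAA.

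Base composition differed a little from the rest and moved with signal. In the 100 bp on each side of the summit, GC content averaged 37.2% ± 7.16 (SD, 766 regions), against 38.3% ± 6.91 (SD, 125236 regions). Repeat-masked bases made up 34.4% of the members' windows on average, against 29.3%. These gaps are against a rest that lay mostly in coding genes. Among intergenic summits, members and the rest had 36.1% and 36.6% G and C, and 37.65% and 35.6% masked bases. In coding exons they had 40.7% and 41.3% G and C, and 16.2% and 14.4% masked bases. In introns and untranslated exons of coding genes the members had more G and C, 38.9% against 36.8% and 38.6% against 36.1%. A run of AAAAAA or TTTTTT was in 61.7% (58.2% to 65.2%) of the members, against 53.0% of the rest. Members in the lowest 25% by signal averaged 34.7% G and C and those in the highest 25% averaged 40.4%, while regions of the rest within the same signal limits averaged 36.5% at the low and 40.7% at the high end. The run of A or T was in 72.9% of the lowest 25% of members, against 58.3% of the rest at that signal, and in 45.8% of the highest 25% of members, against 45.6% of the rest. Members and the rest thus lay farther apart in composition at low signal than at high signal, a difference that was not tested. The 25 highest members averaged 43.8% ± 8.19 (SD), against 42.9% ± 6.82 (SD) for the 4898 regions of the rest with at least their signal. ATGCGC, which occurs 4 times at linc-128, was in 3 of the 25, linc-128 among them, against 4.80% of those 4898 regions. Since the words were chosen with earlier results of these data known, the 3 of the 25 cannot show an excess. Among all members ATGCGC was in 3.00%, against 3.24% of the rest. CGCGCA was in 4.57% (3.20% to 6.30%) of the members, against 3.16% of the rest.

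By chromosome, the clearest gap was on IV. Its 103 members, at 26 lincRNA genes, had a median signal of 20.5 (95% interval 18.5 to 23.0), against 23.8 in the rest of the list on IV, and the highest reached only 48.8. They overlapped regions of both replicates in 42.7% (33.0% to 52.9%), against 55.8%. Their windows averaged 35.05% G and C, against 37.95%. The part of base composition in the lower signal was not tested. On the other chromosomes the members' medians ran from 21.7 on X to 26.5 on I, and each interval took in the median of the rest there. CCGGAA was in 16.2% of the members on III (10.1% to 24.2%, rest 10.8%) and in 13.95% of those on V (8.48% to 21.15%, rest 8.90%). On X it was in 4.14% (1.53% to 8.79%, rest 7.29%). Each of these intervals takes in the share of the rest. These chromosomes were singled out after their values were seen, among 6.

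**Figure D5:**
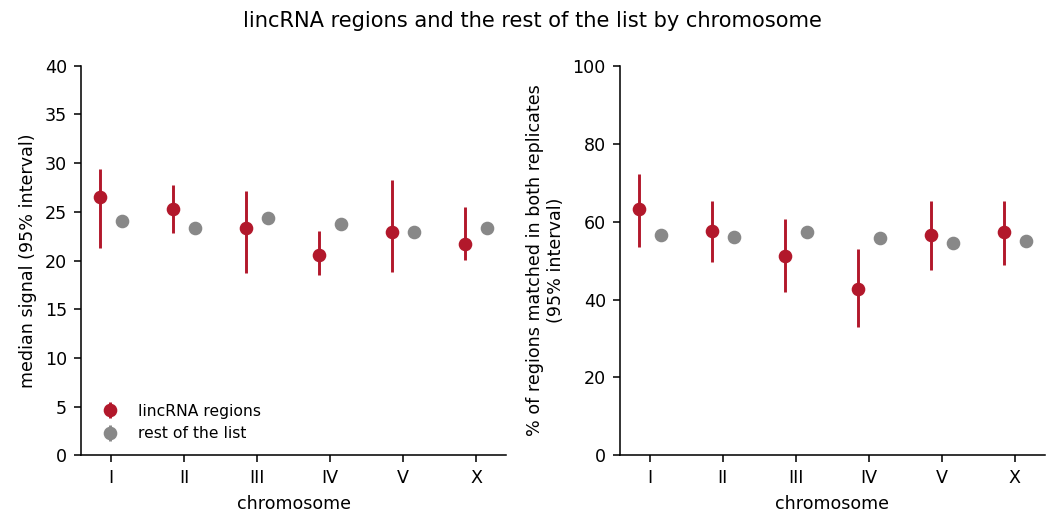
Median signal (left) and the share of regions matched in both replicates (right) by chromosome for lincRNA regions (red) and the rest of the list (grey), with 95% intervals. On IV the lincRNA regions have a median of 20.5 and a share of 42.7%, under the 23.8 and 55.8% of the rest; on the other chromosomes the intervals take in the rest's values.

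Beside other noncoding genes, lincRNA genes had somewhat lower signal. With the same limit of 1000 bp, the median was 25.7 for 345 regions at antisense RNA genes, 26.1 for 982 at snoRNA genes, 25.1 for 621 at miRNA genes and 25.2 for 1364 at tRNA genes. The 104977 regions at protein-coding genes had 23.8. All 4 noncoding medians lie above the interval of the lincRNA regions (21.88 to 24.96), and the differences were not tested. The main list held 2 of the regions at antisense RNA genes, 9 at snoRNA genes (0.917%), 1 at miRNA genes and 8 at tRNA genes (0.587%), read against the same background of 0.198%. The sets overlap, with 5 lincRNA regions also counted at antisense RNA genes, 18 at snoRNA genes, 9 at miRNA genes and 7 at tRNA genes. Density was 1.24 regions per kb at lincRNA genes, 1.17 at antisense RNA genes, 1.41 at snoRNA genes, 1.32 at miRNA genes and 1.32 at tRNA genes.

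The limit of 1000 bp cut through a continuous spread. The 5 regions just inside it, at 993 to 999 bp, had signals of 46.1 (F19G12.10), 20.6 (linc-41), 17.8 (linc-23), 31.3 (Y71F9AM.9) and 47.9 (linc-47). The 5 just outside, at 1003 to 1012 bp, had 21.2 (linc-152), 28.6 (Y48C3A.1), 3.82 (linc-67), 17.4 (linc-93) and 7.16 (linc-33). None of the 10 was in the main list. The 481 regions beyond 1000 bp and up to 2000 bp away had a median of 23.3, 4 of them were in the main list (0.832%), and 25.6% of them lay within 500 bp of a protein-coding start, against 16.1% of the members. Whether the 0.832% differs from the 0.261% of the members was not tested.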

How the data were processed

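Region lists of 1 ChIP-seq group with 2 biological replicates were used. Per the labels, coordinates are on ce11. Which aligner and caller made them, and in which versions, is not stated in any source used here. The deposited signal is the authors' value per region, on a scale that is not stated. The deposited score is a whole number that falls as the global IDR rises, at most 1000; 830 corresponds to an IDR of 0.01. The deposited −log10 values are of the global IDR, and they matched the scores within 1 point. Per the text deposited with the samples, lists were made from alignments and 1 further file whose role was not settled here. The 50 regions of the series ranked list at or above that score that the main list leaves out stay uncalled; none is a member.

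Summits were placed on the Ensembl release 115 annotation (WBcel235, the assembly of ce11), and coordinates are 1-based. A region matched a replicate when it overlapped a region of that list by 1 bp or more, the nearest summit being taken. Shares have exact 95% binomial intervals and medians 95% order-statistic intervals. With 1 group no comparison of conditions and no p-value is possible. Whether the replicates came from separate cultures is not stated beyond the word biological. The counting steps were tested on simulated data. Python 3.11.15, numpy 2.4.6, pandas 2.3.3, scipy 1.17.1 and matplotlib 3.10.9 were used.

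Regions named were those in a list passing the threshold, the 25 of highest signal, the 5 highest in each replicate, the best of 9 studied noncoding genes, the 5 on each side of the limit and the 3 genes with most regions. The 11 genes without a region, the genes inside coding genes, and some regions of lowest signal were named outside this rule. The members, lists and words were chosen with earlier results of these data known. Columns of the series ranked list for its 2 compared lists could not be tied to a sample and were not used.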

Additional observations from a re-analysis of the deposited data

How the results depend on the processing

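Of 32 alternatives, 21 left a value within its interval (or, for a count, within 1.5 times). Of these, 9 concern the share passing, whose interval (0.0316% to 0.940%) rests on 2 regions and is too wide to register most shifts. Some moves followed from the setting alone, since a wider window or a shorter word raises the share with the word. The tally is therefore no measure of how firm the results are. The number of regions was 766, and 1247 with a limit of 2000 bp. Merging overlapping regions gave a median signal of 26.4, against 27.2 for the rest merged in the same way. With the lists of single replicates in place of the main list, the share passing was 0.159% in replicate 1 (rest 0.0186%) and 0% in replicate 2 (rest 0.0283%). These lists pass fewer regions than the main list, so their shares cannot be set against its 0.261%. The median place lay between 46.5% and 50.3%. The share matched in both replicates was 40.3% when 50% of the region had to overlap (rest 41.3%) and 33.0% with summits within 100 bp (rest 33.5%). CCGGAA was in 6.53% within 50 bp (rest 5.21%) and 13.3% within 150 bp (rest 12.8%), and GGAA in 87.9%. GC content was 38.2% within 50 bp and 36.7% within 150 bp (rest 38.8% and 37.9%). A summit in the gene body was found for 70.3% of the genes. Counting the regions left out of the main list, chosen after seeing the data, gave 0.261% (rest 0.238%). No paired analysis was possible because there is 1 group. The number of members in the main list (2) and the number of replicates limit what can be shown.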
